A study of Mus musculus with 11 samples.

Results

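Phospholipase C enzymes cut the membrane lipid phosphatidylinositol 4,5-bisphosphate (PIP2) into inositol trisphosphate (IP3), which releases calcium from the endoplasmic reticulum, and diacylglycerol, which recruits protein kinase C and other proteins to the membrane. The subfamilies answer to different inputs. The beta enzymes are switched on by Gq-coupled receptors, the gamma enzymes by tyrosine kinases, the delta enzymes by calcium itself, and the epsilon enzyme by small GTPases such as Ras and Rap. In the brain these enzymes act downstream of metabotropic glutamate, muscarinic and serotonin receptors and of neurotrophin receptors. The genes described here were taken by symbol from the gene count table, and comprised Plcb1, Plcb2, Plcb3, Plcb4, Plcg1, Plcg2, Plcd1, Plcd3, Plcd4 and Plce1, 10 of the 36666 genes listed. The family was selected on the library-scaled Plce1 counts of the same mutator and control mice, which were already known, so the differences of its members between the groups are given as a description, and where members are counted against the threshold used for all genes nothing is read from the count.

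RNA sequencing was performed on the cerebrum of 11 male C57/Bl6 mice aged 1 year. The mutator group was 7 mice homozygous for the Polg D257A allele (D257A/D257A), a point mutation that impairs the proofreading of the mitochondrial DNA polymerase. The control group was 4 littermates, 3 of them WT/WT and 1 WT/D257A (mouse 237), so that 1 control carried the allele too. The allele was carried in the germ line, so all tissues of a mutator mouse had it. Polyadenylated RNA of the whole tissue was measured, so fewer cells of a type and less RNA per cell cannot be told apart.

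Gene counts summed to between 28249345 and 121182250 in the controls (median 52981946, n = 4) and to between 37821243 and 91219204 in the mutators (median 55741011, n = 7). Levels are given as CPM, that is, gene counts scaled to a common library size, with edgeR's TMM factors. Markers of neurons (Snap25, Syt1 and others) summed to between 5958 and 6329 CPM in the controls and to between 5760 and 6207 in the mutators, and no marker of any cell type listed was at 0. By edgeR's quasi-likelihood test, adjusted by the Benjamini-Hochberg method, 1.24% of 17983 genes tested had an adjusted p-value under 0.05 between the groups (0.439% higher and 0.801% lower in the mutators). For 2.62% of the genes the values of the groups did not overlap. Whether the mice of a group were of separate litters was not stated, and p-values measure the spread between these mice.

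Plce1 was the member whose level stood apart. Plce1 encodes phospholipase C epsilon, which carries both a Ras-binding region and an exchange factor domain for Rap beside its lipase domain. The gene (ENSMUSG00000024998) lies on the plus strand of chromosome 19 from 38598687 to 38859588 in NCBIM37 (mm9), and no other annotated gene overlaps its exons. In the controls it was at 19.1 CPM in mouse 205, 18.1 in mouse 237, 19.6 in mouse 239 and 15.7 in mouse 246. In the mutators the lowest value was 24.3, the median 25.6 and the highest 28.3 CPM. The highest control therefore lay below the lowest mutator, and the WT/D257A mouse lay within the range of the WT/WT mice. The means were 18.1 ± 1.75 CPM (SD, n = 4) and 26.1 ± 1.68 CPM (SD, n = 7), which is a log2 fold change of 0.52 with a standard error of 0.07, or 1.43-fold. These values rest on between 432 and 2337 counts per mouse.

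Of the 10 members, all of which passed the filter on low counts, 1 (Plce1) had an adjusted p-value under 0.05 and 1 (again Plce1) had groups that did not overlap. Over all genes these shares were 1.24% and 2.62%, and 1.2% had groups that did not overlap with the mutators higher, but since Plce1 was the reason the family was chosen, nothing is read from them. The log2 fold change was above 0 for 3 members and below 0 for 7, with a median of -0.05, against a median of 0.0014 over all genes tested. Without Plce1 the members ranged from -0.20 to 0.08, with standard errors between 0.05 and 0.11. In 8 of the 10 members the difference was within 2 standard errors, and in 3 it was within 1.

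**Figure D1:**
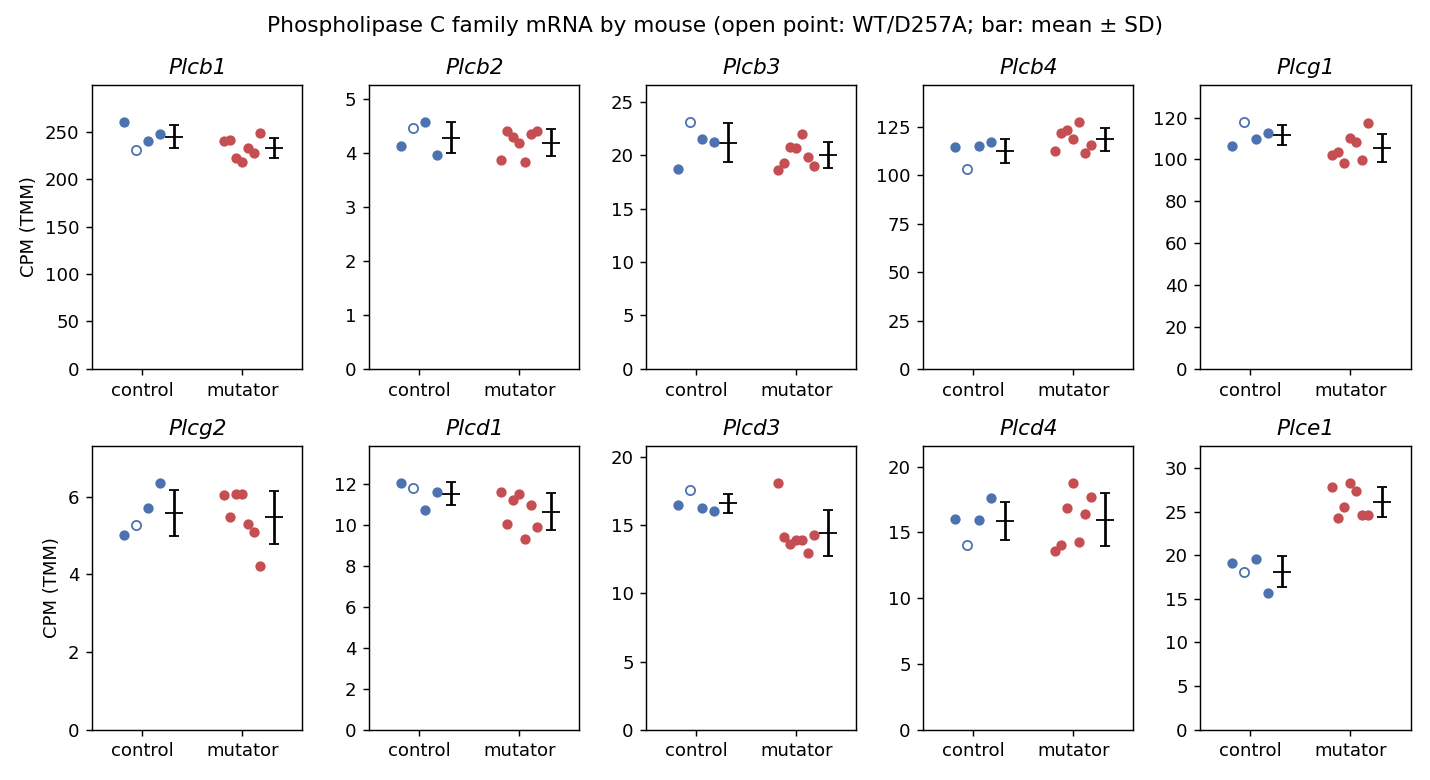
Level of each member in each mouse, in CPM on axes that start at 0, for 4 controls (blue, open point for the WT/D257A mouse) and 7 mutators (red), with the mean and SD in black. The Plce1 panel is the one in which all mutators (24.3 to 28.3 CPM) lie above all controls (15.7 to 19.6 CPM), and in the Plcd3 panel 6 of 7 mutators lie below the lowest control.

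Among the beta enzymes, Plcb1, the main Gq effector of cortical and hippocampal neurons, lies on chromosome 2 (134611895 to 135300994, plus strand). It was at 260.1, 230.5, 240.4 and 247.9 CPM in control mice 205, 237, 239 and 246, and at between 218.0 and 248.2 (median 232.2) in the mutators. The groups overlapped, with 3 of 7 mutators below the lowest control and a log2 fold change of -0.07 ± 0.05 (SE). Plcb4, the beta enzyme best known from Purkinje cells, the thalamus and the retina, lies just downstream of Plcb1 on the same chromosome and strand (135484747 to 135840329). Its values were 114.7, 103.4, 115.2 and 117.5 CPM in the same controls and between 111.7 and 127.6 (median 118.7) in the mutators. Here 4 of 7 mutators were above the highest control, with a log2 fold change of 0.08 ± 0.05 (SE), and the lowest control was the WT/D257A mouse.

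Plcb3, a widely expressed beta enzyme, and Plcb2, known mainly from blood cells and taste cells, were at lower levels. Plcb3 (chromosome 19, 7028204 to 7044279, minus strand) was at 21.1 ± 1.82 CPM in the controls (SD, n = 4) and 20.01 ± 1.18 CPM in the mutators (SD, n = 7), which is a log2 fold change of -0.07 ± 0.06 (SE). Plcb2 (chromosome 2, 118533253 to 118554174, minus strand) was at 4.29 ± 0.29 and 4.20 ± 0.25 CPM, which is a log2 fold change of -0.03 ± 0.10 (SE), from as few as 109 counts in a mouse. Both differences were smaller than the spread between the mice of a group.

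The gamma enzymes carry SH2 domains by which they dock on phosphorylated receptors. Plcg1, the form that TrkB and growth factor receptors engage, lies on chromosome 2 (160557036 to 160601496, plus strand). It was at 106.5, 117.9, 109.8 and 112.5 CPM in control mice 205, 237, 239 and 246 and at between 98.2 and 117.2 (median 103.7) in the mutators. The groups overlapped, with 4 of 7 mutators below the lowest control and a log2 fold change of -0.08 ± 0.05 (SE). Plcg2, the form of immune cells and, in the brain, of microglia, lies on chromosome 8 (120022191 to 120159040, plus strand). It was at 5.59 ± 0.59 CPM in the controls (SD, n = 4) and 5.47 ± 0.68 CPM in the mutators (SD, n = 7), and its log2 fold change of -0.02 ± 0.11 (SE) changed sign in 2 of 18 alternative settings. The summed level of 8 microglial markers (Cx3cr1, Aif1 and others) was 313 to 382 CPM in the controls and 296 to 359 CPM in the mutators, with all 8 log2 fold changes below 0 and 0 genes past the threshold.

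The delta enzymes are the most calcium-sensitive of the subfamilies described here, and Plcd3 had the lowest log2 fold change of the members. Plcd3 (chromosome 11, 102931618 to 102962972, minus strand) was at 16.5, 17.6, 16.3 and 16.1 CPM in control mice 205, 237, 239 and 246. In the mutators it was at 18.1 CPM in mouse 207 and at between 12.9 and 14.3 CPM in the other 6. Thus 6 of 7 mutators lay below every control and 1 lay above every control. The log2 fold change was -0.20 (standard error 0.08) with all mice and -0.27 without mouse 207. Plcd1 (chromosome 9, 118980645 to 119002614, minus strand), a form found in many tissues, was at 11.5 ± 0.58 CPM in the controls (SD, n = 4) and 10.7 ± 0.89 CPM in the mutators (SD, n = 7), which is a log2 fold change of -0.11 ± 0.08 (SE).

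Plcd4 (chromosome 1, 74589462 to 74614368, plus strand) was at 15.9 ± 1.45 CPM in the controls (SD, n = 4) and 15.9 ± 2.01 CPM in the mutators (SD, n = 7). Its log2 fold change of 0.01 ± 0.09 (SE) changed sign in 6 of 18 alternative settings. The annotation places Zfp142 on the opposite strand across 38.8% of the exon bases of Plcd4. The library kit named in the labels does not mark strand, so reads from that stretch cannot be assigned to one gene or the other. The same holds for 4.09% of the exon bases of Plcg1, shared with Zhx3, and 2.05% of those of Plcb1, shared with 9630028H03Rik. The other 7 members share none.

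**Figure D2:**
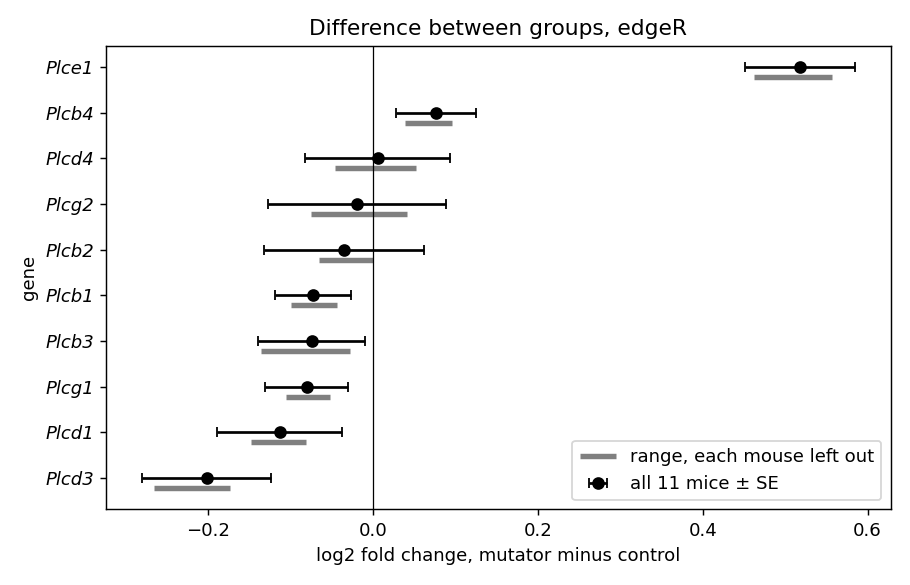
Log2 fold change of each member, mutator minus control, from the edgeR fit to all 11 mice (point, bar of 1 standard error) with the range reached when each mouse was left out in turn (grey line). Plce1 stayed between 0.46 and 0.56, while Plcd3, the lowest member, stayed between -0.27 and -0.17.

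The WT/D257A control was compared with the 3 WT/WT controls member by member, as values only. It lay within the WT/WT range for Plcb2, Plcg2, Plcd1 and Plce1, above it for Plcb3, Plcg1 and Plcd3, and below it for Plcb1, Plcb4 and Plcd4. With the 3 WT/WT mice as the only controls, Plce1 had a log2 fold change of 0.52. This equals, to 2 decimals, the value with the mouse that carried 1 copy of the allele.

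Summed over the 10 members, the level of the family differed between the groups by less than the SD within either of them. It was 562 ± 12.1 CPM in the controls (SD, n = 4) and 554 ± 14.0 CPM in the mutators (SD, n = 7). Plce1 made up 3.23 ± 0.33% of the counts of the family in the controls and 4.71 ± 0.32% in the mutators, and the ranges of this share did not overlap (2.75% to 3.51% and 4.29% to 5.15%). Plce1 thus held a minor part of the summed counts of these 10 members in either group. The shares are not scaled to gene length, and phospholipase C genes outside the 10 are not in the sum.

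To compare levels between genes, CPM were divided by the length of the annotated exons of each gene, which gives RPKM. In the controls, Plcb1 was highest at 28.2 ± 1.44 RPKM (SD, n = 4), followed by Plcg1 at 14.2 ± 0.61 and Plcb4 at 12.6 ± 0.70. Plcb3 at 5.00 ± 0.43, Plcd3 at 4.90 ± 0.20 and Plcd1 at 4.35 ± 0.22 came next, and Plcb3 and Plcd3 did not differ beyond their spread. Below them were Plcd4 at 2.93 ± 0.27, Plce1 at 1.90 ± 0.18, Plcg2 at 1.30 ± 0.14 and Plcb2 at 0.65 ± 0.04 RPKM. Plcb1, Plcg1 and Plcb4 thus headed the order. Apart from Plcb3 and Plcd3, the ranges of the 4 mice did not overlap between neighbours in the order. Plcb3 (4.42 to 5.46 RPKM) also overlapped Plcd1 (4.04 to 4.55 RPKM), which is not its neighbour.

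The mutators kept the same order of means, with Plce1 in the eighth place at 2.73 ± 0.18 RPKM (SD, n = 7). Its range in the mutators (2.55 to 2.97) overlapped that of Plcd4 (2.50 to 3.46), whereas in the controls the highest Plce1 value of 2.06 was below the lowest Plcd4 value of 2.59. In the mutators Plcg1 also overlapped Plcb4, Plcb3 overlapped Plcd3 and Plcd3 overlapped Plcd1. The order depends on the lengths used. With the longest transcript of each gene in place of all its exons, Plcd3 moved ahead of Plcb3. The lengths come from a later annotation release than the one counted on. For Plcb1, Plcb2 and Plcg1 the number of pieces between exon borders differs between these releases (52 and 62 for Plcg1). Their lengths may therefore not be those counted on, which also bears on the gap between Plcg1 and Plcb4. For Plcd4, 38.8% of the exon bases are shared with Zfp142, and reads there cannot be assigned to one gene. The level of Plcd4 per length, its place in the order and its overlap with Plce1 are uncertain for that reason.

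**Figure D3:**
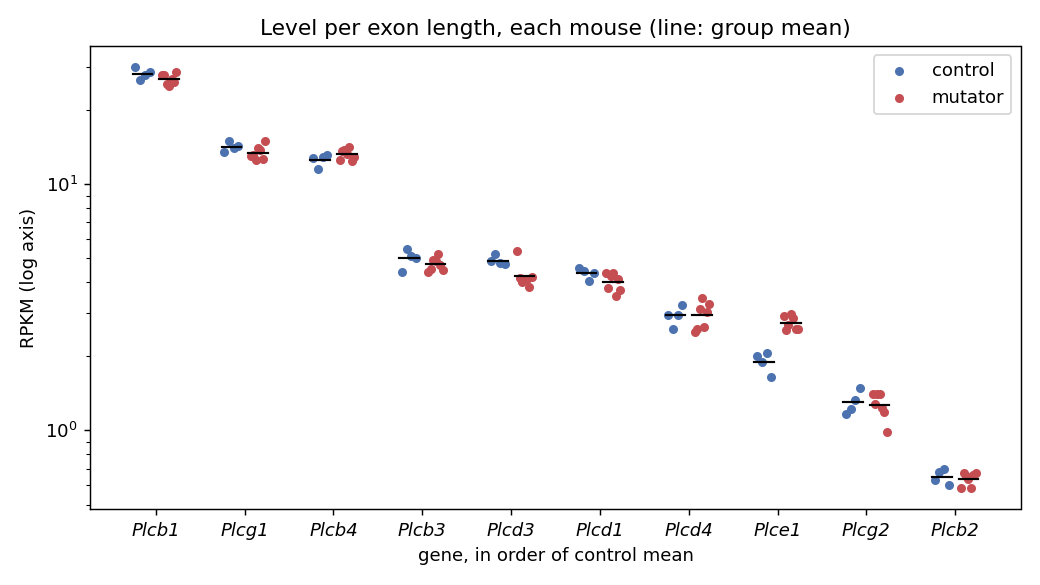
Level per exon length of each member in each mouse, in RPKM on a log axis, with the members in order of the control mean. Control (blue) and mutator (red) points of Plce1 are apart, and the red points of Plce1 (2.55 to 2.97 RPKM) reach the range of Plcd4. The level of Plcd4 per length is uncertain because part of its exon bases is shared with Zfp142.

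Counts per exon bin, the pieces into which annotated exon borders divide a gene, were given for 3 WT/WT and 7 mutator mice. These were used to see whether the higher Plce1 level was spread along the gene. All 34 bins of Plce1 that passed the filter, of 35, had a higher mean CPM in the mutators. In 10 of them the groups did not overlap, and 1.06% of all bins tested had groups that did not overlap with the mutators higher. For example, the first coding bin (bin 2) was at 1.36 ± 0.33 CPM among WT/WT mice (SD, n = 3) and 2.13 ± 0.21 CPM among mutators (SD, n = 7), and the last bin (bin 35), beyond the coding sequence, was at 1.22 ± 0.16 and 1.87 ± 0.34 CPM. These bins hold the same reads as the gene total that chose Plce1.

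Usage, meaning how much of a gene's signal a bin holds, was compared with edgeR's diffSpliceDGE. Usage of Plce1 bins differed between the groups by log2 fold changes from -0.25 to 0.30, and the lowest unadjusted p-value, for bin 16, was 0.223 by edgeR, with a log2 fold change of 0.28 ± 0.22 (SE). No Plce1 bin had an adjusted p-value under 0.05 with all mice or in any of the 13 alternative settings. With a median standard error of 0.21 per bin, small shifts between bins were not detectable at this depth.

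The annotation gives Plce1 a pair of transcripts, which differ inside the coding sequence by bin 21, an exon of 42 bases (14 codons) on chromosome 19 from 38822900 to 38822941, plus strand, NCBIM37. It is shown here because it is the 1 coding piece by which the annotated Plce1 transcripts differ.
Plce1 bin 21: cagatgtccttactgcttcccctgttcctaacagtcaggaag
This bin held 8, 1 and 4 counts in WT/WT mice 205, 239 and 246 and between 4 and 9 counts in the mutators. Summed over the mice, it had 13 counts in the WT/WT group against 95 and 102 in the neighbouring bins 20 and 22 (130 and 122 bases), and 41 in the mutators against 267 and 296. The exon was therefore seen in both groups at a small part of the counts of its neighbours, and its counts were under the filter, so its usage was not tested. A short exon also overlaps fewer reads than a long one.

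Over all members, 289 of 379 bins were tested and 0 had an adjusted p-value under 0.05 by edgeR (0.0237% of all bins tested had one). With limma's diffSplice the count was also 0. An unadjusted p-value under 0.05 was found for 4 member bins, and for 1.9% of all bins tested. Of these 4, bins 2 and 3 of Plcb1, near the 5′ end of the gene, had the lowest p-values.

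Plcb1 bin 3 made up 0.640%, 0.952% and 0.856% of the Plcb1 bin counts in WT/WT mice 205, 239 and 246. In the mutators it made up between 0.402% and 0.690%. The ranges overlapped, since mutator mice 207 (0.648%) and 236 (0.690%) lay above WT/WT mouse 205. Its usage log2 fold change was -0.57 (standard error 0.13, edgeR adjusted p = 0.0559).

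Plcb1 bin 2 made up 1.81 ± 0.32% of the bin counts of WT/WT mice (SD, n = 3) and 1.33 ± 0.18% of those of mutators (SD, n = 7), with usage lower by a log2 fold change of -0.41 ± 0.10 (SE), adjusted p = 0.102 by edgeR. Neither bin passed the threshold with all mice, but both passed it without WT/WT mouse 205, without mutator mouse 207 or without mutator mouse 236. With any other single mouse left out, neither passed. Without mutator mouse 240 the edgeR adjusted p-values of bins 2 and 3 were 0.810 and 0.495. Without WT/WT mouse 246 they were 0.885 and 0.361. Without WT/WT mouse 239 both adjusted p-values were 1.00, with log2 fold changes of -0.42 for bin 3 and -0.30 for bin 2. The bins of Plcb1 in the files do not match in number those of the annotation used here, so no coordinates are given for them.

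In the other members the bin with the lowest p-value had an adjusted p-value of 1.00. For Plcb2 this was bin 8, for Plcb3 bin 23, for Plcb4 bin 62, for Plcg1 bin 45, for Plcg2 bin 6, for Plcd1 bin 14, for Plcd3 bin 5 and for Plcd4 bin 15. Their usage log2 fold changes ran from -0.35 in Plcb2 to 0.78 in Plcg2, with standard errors of 0.25 and 0.39.

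**Figure D4:**
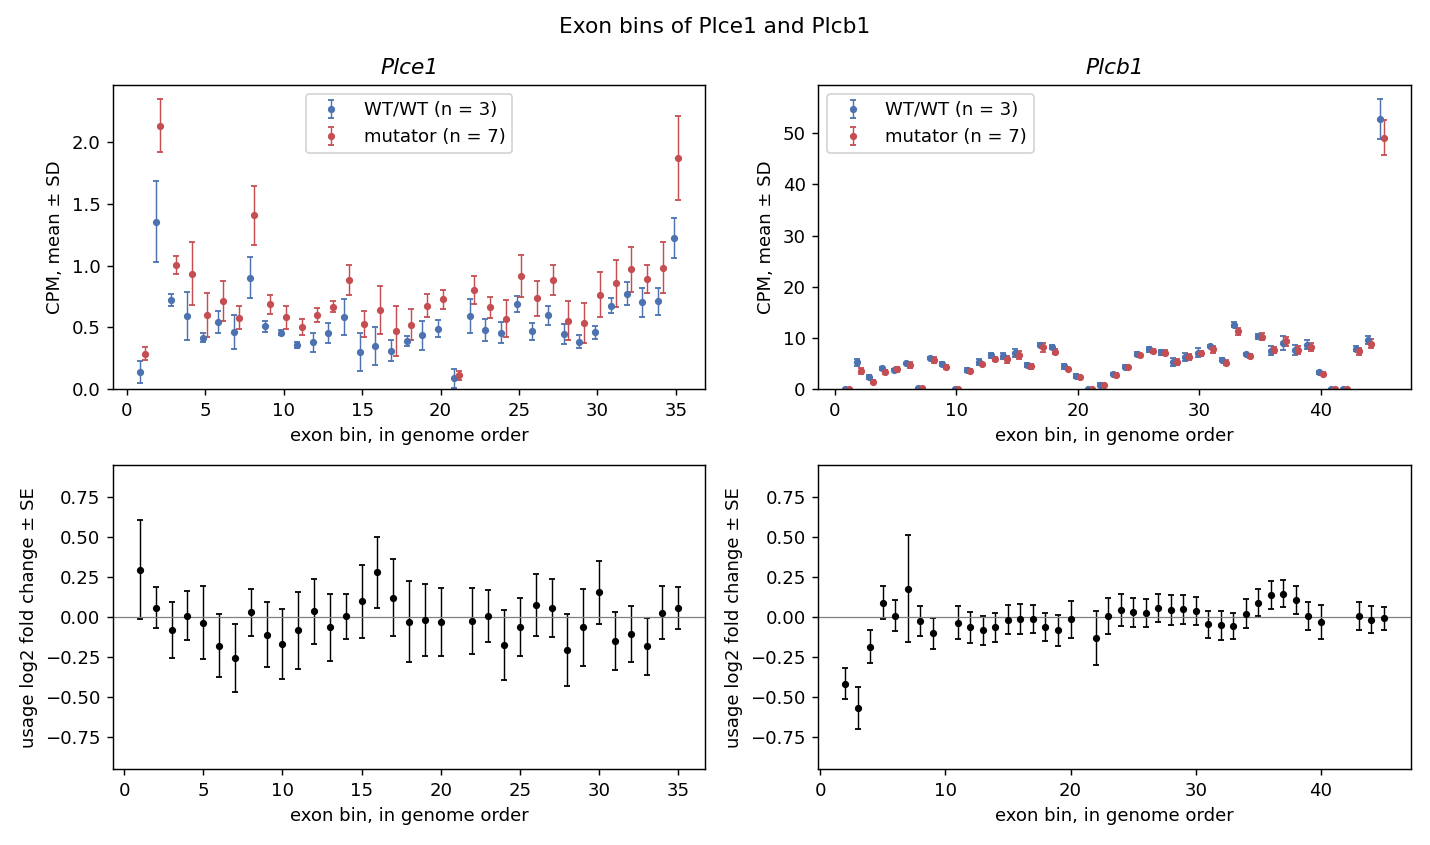
Exon bins of Plce1 (left) and Plcb1 (right) in genome order for 3 WT/WT (blue) and 7 mutator mice (red). The upper panels give the CPM of each bin (mean and SD) and the lower panels the usage log2 fold change with its standard error, where Plce1 bins lie around 0 and Plcb1 bins 2 and 3 lie at -0.41 and -0.57.

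Other genes of the pathway were then examined, in 11 lists that follow the signal from receptors through the G proteins and GTPases to the targets of IP3 and diacylglycerol. Of 163 genes, 162 were tested, and Syk was not analysed here. In edgeR's test 5 had an adjusted p-value under 0.05, 0 higher and 5 lower in the mutators, which is 3.09% of the genes tested beside 1.24% of all genes. The log2 fold changes ranged from -0.55 to 0.84 with a median of -0.03, and 73 were above 0 and 89 below. An unadjusted p-value under 0.05 was found for 40, which is 24.7% of the genes tested, and for 15.8% of all genes. The lists were chosen with earlier results of these data known, so no excess over all genes is read from these shares. DESeq2 called 15 of the pathway genes, 4 higher and 11 lower. The number of calls by edgeR varied between 0 and 11 when each mouse was left out, so these 5 lie near the threshold.

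By list, the median log2 fold change was 0.01 for the other phospholipase C genes, 0.04 for Gq-coupled receptors, 0.01 for alpha subunits and -0.03 for the genes that turn these off. It was -0.03 for the small GTPases, -0.02 for tyrosine kinases and adaptors, -0.05 for PIP2 supply, 0.03 for the IP3 branch, 0.0022 for diacylglycerol kinases and lipases and 0.06 for TRPC channels. The diacylglycerol effectors were lowest at -0.10, and the median over all genes was 0.0014.

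Itpr1, the main IP3 receptor of neurons, was at 697 CPM in control mouse 205 and between 763 and 776 CPM in the other 3 controls, and at between 632 and 689 CPM (median 663) in the mutators. All mutators were below all controls, and 1.42% of all genes had groups that did not overlap in that direction. The log2 fold change was -0.17 ± 0.04 (SE), adjusted p = 0.0498 by edgeR. Itpka, which phosphorylates IP3 further, fell from 137.6 ± 13.8 CPM (SD, n = 4) to 114.0 ± 8.34 CPM (SD, n = 7), with a log2 fold change of -0.27 ± 0.06 (SE), adjusted p = 0.0346 by edgeR. No other gene of the 15 in the IP3 branch passed the test, and 9 of the 15 had log2 fold changes above 0. Itpr1 kept its call in 4 of 18 alternative settings and Itpka in 10, with highest adjusted p-values of 0.191 and 0.201.

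On the diacylglycerol side, Mgll, the lipase that breaks down the endocannabinoid made from diacylglycerol, was at between 176 and 216 CPM in the controls and between 148 and 175 CPM in the mutators. Its groups did not overlap, and 1.42% of all genes had groups that did not overlap in that direction. The log2 fold change was -0.24 ± 0.06 (SE), adjusted p = 0.0416 by edgeR, and 1 of 13 diacylglycerol kinases and lipases passed edgeR's test with all mice, while DESeq2 also called Daglb and Dgkz. Unc13a, a synaptic vesicle priming protein that binds diacylglycerol, fell from 448 ± 36.5 CPM (SD, n = 4) to 388 ± 17.9 CPM (SD, n = 7), with a log2 fold change of -0.21 ± 0.05 (SE), adjusted p = 0.0493 by edgeR. It was the 1 of 19 diacylglycerol effectors that passed, while 17 of the 19, Chn1 (-0.08), Rasgrp1 (-0.13) and Prkce (-0.04) among them, had log2 fold changes below 0. Mgll kept its call in 9 of 18 alternative settings and Unc13a in 5, with highest adjusted p-values of 0.238 and 0.241.

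Upstream of the beta enzymes, Cckbr, a cholecystokinin receptor, was at 43.7 ± 2.94 CPM in the controls (SD, n = 4) and 35.9 ± 3.39 CPM in the mutators (SD, n = 7), with a log2 fold change of -0.28 ± 0.07 (SE), adjusted p = 0.0395 by edgeR. It kept its call in 9 of 18 alternative settings, with a highest adjusted p-value of 0.199. By edgeR with all mice the other 27 receptors acting through Gq did not pass, among them the abundant Grm5 (log2 fold change 0.01), Chrm1 (-0.13) and Htr2c (0.21). Adra1d (-0.38) was called by DESeq2, by edgeR with library size as a covariate and without mouse 205 or 249, and Htr2c was called without mouse 205. By edgeR with all mice 0 of 6 alpha subunits passed, with log2 fold changes of 0.06 for Gnaq, -0.03 for Gna11 and -0.24 for Gna12, which was called by DESeq2, by edgeR without a filter on low counts and without mouse 217. In the same fit 0 of 7 genes that turn the signal off passed, with -0.16 for Rgs4, -0.11 for Adrbk1 and -0.03 for Rgs8.

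Upstream of Plce1, 0 of 19 genes for small GTPases and their exchange factors passed edgeR's test with all mice. The most abundant of them was Rapgef4, a cAMP-driven exchange factor for Rap. It was at between 610.1 and 700.4 CPM in the controls and between 557.4 and 610.1 CPM in the mutators. These ranges came within rounding of each other without overlapping. Over all genes, 1.42% had groups that did not overlap with the mutators lower. Rapgef4 had a log2 fold change of -0.16 ± 0.05 (SE), adjusted p = 0.0821 by edgeR, and it was called by DESeq2. Hras1 was called without mouse 205. Rhob (-0.04) and Mras (-0.10) followed in abundance. The summed level of the list was 2198 ± 70.9 CPM in the controls (SD, n = 4) and 2110 ± 64.9 CPM in the mutators (SD, n = 7), so their ranges overlapped.

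Upstream of the gamma enzymes, 0 of 22 receptor tyrosine kinases and adaptors passed edgeR's test with all mice. Ntrk2, the receptor for brain-derived neurotrophic factor and the most abundant of them, was higher in all mutators (794 to 867 CPM) than in all controls (720 to 786 CPM), with a log2 fold change of 0.14 ± 0.04 (SE). Over all genes, 1.2% had groups that did not overlap with the mutators higher. In this list the groups did not overlap for 3 of the 22 genes, Ntrk2 and Kdr among them, beside 2.62% of all genes. The summed level of the list lay between 1638 and 1711 CPM in the controls and between 1727 and 1815 CPM in the mutators. These ranges did not overlap either, although 12 of the 22 genes had log2 fold changes below 0. Ntrk2, as the most abundant gene, is a large part of this sum, so the sum is not a result separate from Ntrk2. Beside Ntrk2, the vascular receptors Flt1 (70.2 ± 3.30 CPM in the controls, SD, n = 4, and 90.0 ± 12.3 CPM in the mutators, SD, n = 7) and Kdr (11.9 ± 1.56 and 21.4 ± 5.36 CPM) were higher in mean, with adjusted p = 0.0615 and 0.0705 by edgeR. Fgfr3 had a log2 fold change of 0.04, and Grb2 was at 137.4 ± 4.22 CPM in the controls (SD, n = 4) and 137.3 ± 5.60 CPM in the mutators (SD, n = 7). The adjusted p-value of Ntrk2 was 0.0915 by edgeR, and with DESeq2 Ntrk2, Flt1 and Kdr were among the 15 pathway genes called. With edgeR, Flt1 was called higher without mouse 207, 217 or 248, and Kdr was called higher without mouse 248 or 249.

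The remaining lists held no call by edgeR with all mice. Of the genes that supply PIP2, 0 of 19 passed, with Cds2 at 0.05, Pip5k1c at -0.20 and Pi4ka at -0.07 on the log2 scale. Pip5k1c was called by DESeq2, by edgeR without a filter on low counts or with library size as a covariate, and without mouse 205 or 249. Of 6 TRPC channels 0 passed, with Trpc1 at 0.03 and Trpc4 at 0.10. Of 8 other phospholipase C genes and phospholipase C-like genes, 0 passed, with Plcxd2 at 0.09, Plch2 at -0.17 and Plcl2 at -0.04.

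**Figure D5:**
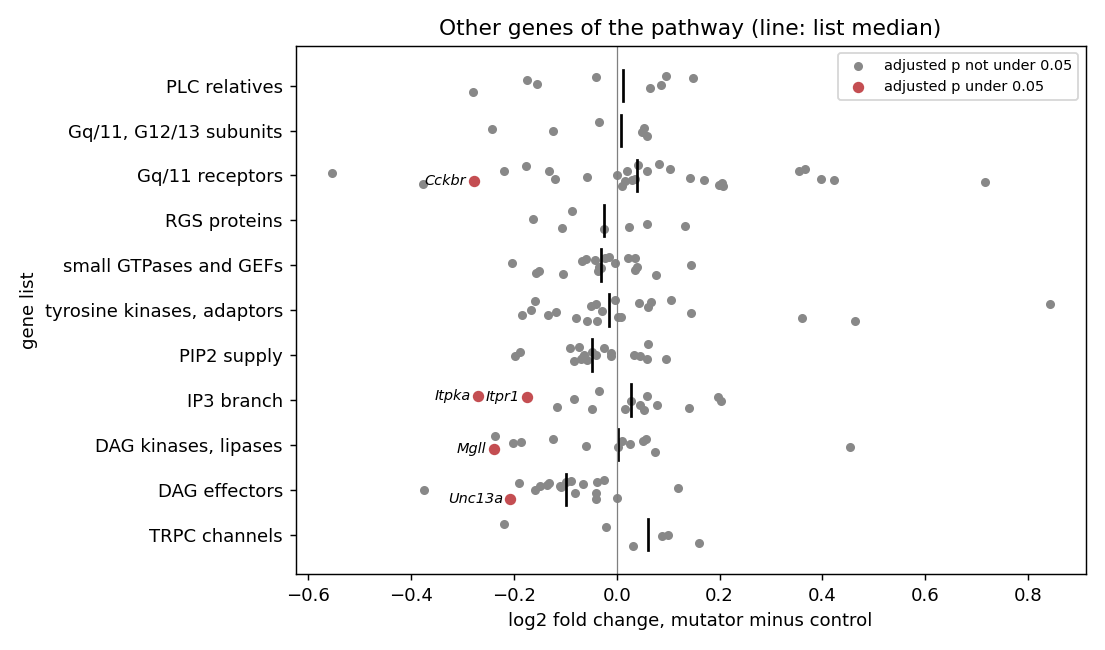
Log2 fold change, mutator minus control, of 162 other genes of the pathway in 11 lists, with the median of each list as a line. The 5 genes with an edgeR adjusted p-value under 0.05 (red, named) all lie below 0, between -0.28 and -0.17.

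Markers of cell types were measured beside these results. The summed levels of the endothelial markers (10 genes) ranged from 274 to 344 CPM in the controls and from 281 to 360 CPM in the mutators, and those of mural cells (8 genes) from 177 to 190 and from 181 to 214 CPM, with 1 mural gene (Abcc9, log2 fold change 0.64) past the threshold. Astrocyte markers (7 genes) summed to between 4809 and 5102 CPM in the controls and to between 4537 and 4931 CPM in the mutators, and oligodendrocyte markers (6 genes) to between 4854 and 5564 and between 4744 and 6667 CPM. The ranges of these sums overlapped between the groups, but single genes did not overlap, namely Kdr of the endothelial list (9.63 to 13.1 CPM in the controls and 14.6 to 30.5 in the mutators) and Abcc9 of the mural list (10.1 to 12.02 and 14.9 to 19.8 CPM). Other genes of these lists went the other way. Of the endothelial markers 5 had log2 fold changes above 0 and 5 below, and of the mural markers 4 above and 4 below. The lowest were Tie1 (-0.29) and Acta2 (-0.53), whose groups overlapped.

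Red blood cell markers (5 genes) summed to between 57.5 and 198 CPM in the controls and to between 89.7 and 256.9 CPM in the mutators, with all 5 log2 fold changes above 0 and 0 genes past the threshold. Choroid plexus markers (6 genes) summed to between 518 and 697 and to between 532 and 760 CPM. Thalamic markers (7 genes) summed to between 444 and 472 CPM in the controls and to between 458 and 486 CPM in the mutators, with 1 gene (Ramp3, log2 fold change -0.33) past the threshold and lower. Markers of striatal projection neurons (7 genes) summed to between 784 and 950 CPM in the controls and to between 655 and 807 CPM in the mutators, with all 7 log2 fold changes below 0 and 1 gene (Adora2a) past the threshold. The part of such shifts in the levels of Plce1, Plcd3 and the 5 called pathway genes was not tested.

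Genes whose level followed that of Plce1 from mouse to mouse were ranked by Pearson's r of log2 CPM over the 11 mice after the mean of each group had been subtracted, among 14699 genes of at least 1 CPM. The 8 closest were Efna2 (r = 0.97), Ankfn1 (0.93), Cacna2d2 (0.93), Znhit6 (0.92), Col9a2 (0.90), Nynrin (0.90), Lrrc61 (0.89) and Magel2 (0.89). Spearman's rank correlation of these 8 lay between 0.78 and 0.95, and r lay between 0.79 and 0.94 without mice 246 and 236, the farthest from the median. They are the top of many genes ranked over few mice that share libraries and depth, and are given as a description. Between the groups 0 of these 8 passed the threshold, and no more than 6 of them stayed among the closest 8 when 1 mouse was left out.

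The other members did not follow Plce1 closely within the groups, with r between -0.21 (Plcb1) and 0.34 (Plcd3). Over all 45 pairs of members the median r was -0.02, from -0.78 for Plcb1 with Plcb3 to 0.43 for Plcg2 with Plcd1.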

How the data were processed

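Poly(A)+ RNA was sequenced as paired ends from the cerebrum of 11 mice. Per the labels and the study's methods, the authors mapped them to mm9 using TopHat2 2.0.6 and Bowtie2 2.0.2.0, counted them per Ensembl gene with HTSeq 0.5.3p9 and deposited raw counts per gene (11 mice) and per exon bin (10 mice, without the WT/D257A mouse). Library totals differed by several fold, and the precision of low genes is limited in the smallest libraries. The deposited DESeq and DEXSeq tables hold fold changes and p-values of the authors' own comparisons and were not used, nor was their table of read totals. Replicates were grouped by the genotype label.

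Gene counts were filtered with filterByExpr, scaled by TMM and fitted with edgeR 4.0.16 in R 4.3.3 (robust quasi-likelihood, 7 mutator against 4 control mice), with Benjamini-Hochberg adjustment over all genes tested and a threshold of 0.05. The F statistic of each log2 fold change gave its standard error. Exon bin usage was tested over all genes with diffSpliceDGE (7 mutator against 3 WT/WT mice), whose natural-log coefficients were divided by the natural log of 2. Between 20.6% and 23.4% of the counts of an exon file were in no bin and were left out. Log2 CPM used a prior count of 2. Exon lengths, coordinates and the printed sequence came from the GENCODE annotation and genome of NCBIM37, a later release of the same build than the one counted on. Scripts were tested on simulated data. The alternatives were DESeq2 1.42.0, limma 3.58.1, other normalizations and filters, the WT/WT controls only, log2 library size as covariate and leaving out each mouse. For genes, the WT/WT controls only and leaving out mouse 237 are the same fit. This fit is counted under both names among the 18 alternative settings.

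The members and gene lists were chosen with earlier results of these data known. Named genes were all members, each pathway gene with an adjusted p-value under 0.05, the 3 of highest mean CPM in each pathway list (1 of these is not reported here), the 8 closest to Plce1, and the exon bin of lowest p-value in each member. Plcb1 bin 2, Plce1 bins 2, 21 and 35, the marker genes and Hras1, Adra1d, Flt1, Kdr, Daglb and Ramp3 were named beside that rule, after their values were seen.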

Additional observations from a re-analysis of the deposited data

Results flagged for a closer look

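A mouse set apart from the rest of its group was looked for in 46 groups (10 members, the 5 called pathway genes and the 8 genes closest to Plce1, in controls and in mutators) by Dixon's gap ratio, the gap to the nearest mouse divided by the range of the group. It was found in 4 groups, and chance gives about 1 in 20, or 2.3, for independent groups of genes chosen without these data. The groups here share their mice, and some of their genes were picked from these data. Nothing is therefore read from the 4 beside the 2.3. Plcd3 was at 18.1 CPM in mutator mouse 207 and at between 12.9 and 14.3 in the other mutators, a gap of 0.741 of the range. Itpka was also highest in that mouse, at 131.6 CPM against 107.8 to 117.3, a gap of 0.600 of the range. Cckbr was highest among the mutators in mouse 211, at 42.9 CPM against 33.3 to 37.4, a gap of 0.577 of the range. Itpr1 was lowest among the controls in mouse 205, the deepest library, at 697 CPM against 763 to 776, a gap of 0.838 of the range.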

How the results depend on the processing

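The log2 fold change of Plce1 lay between 0.46 and 0.56 in the 18 alternative settings, which refit the same counts on which the family was selected. Members called numbered between 1 and 2 when each mouse was left out, the second being Plcd3 without mutator mouse 207, and nothing is read from these counts. All genes called, 223 with edgeR, numbered 615 with DESeq2, 346 without a filter on low counts, 50 with the 3 WT/WT controls only, and between 50 and 412 when each mouse was left out. Pathway genes called, 5 with edgeR, numbered 15 with DESeq2, 3 with RLE factors, 3 with upper-quartile factors, 3 with a mean count of at least 10, 0 with the 3 WT/WT controls only, and between 0 (without mouse 236, 237, 239, 240 or 246) and 11 (without mouse 205) when each mouse was left out. Bins of members called numbered between 0 and 2 when each mouse was left out. Of the 8 genes closest to Plce1, 4 stayed among the closest 8 by Spearman's rank correlation, and between 1 (without mouse 246) and 6 (without mouse 205) when a mouse was left out. The order of levels kept 10 members in place with each of the 4 controls left out in turn. The cause of these shifts was not tested. No paired analysis was possible because the labels number no replicates and tie no mutator to a control, so the replicate numbers used here only name the mice.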
